A study of Mus musculus with 4 samples.

Results

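Genes that load, take up, oxidise and make monoamines were followed in the stomach of Hdc-/- and Hdc+/+ mice. Hdc encodes histidine decarboxylase, which turns histidine into histamine. The members were 9 genes chosen by name: the vesicular transporter genes Slc18a1 and Slc18a2, the uptake transporter genes Slc22a2, Slc22a3 and Slc29a4, the monoamine oxidase genes Maoa and Maob, and the synthesis genes Ddc and Tph1. Of these, 8 had a probe set annotated with that single symbol, 1 probe set each, among the 22180 genes compared, and Slc22a3 was not analysed here. The groups were 2 Hdc-/- arrays and 2 Hdc+/+ arrays, named by their labels, each of stomach tissue from FVB mice aged 1 year. The titles number them as biological replicates but do not say whether each array was a separate animal, and p-values then cover only the spread between these samples. The labels name no other allele or agent, and the deleted part of Hdc, the region of stomach taken, the sex and any pooling of animals are not stated in the labels. The values are log2 probe set values from Affymetrix arrays, normalized by the authors with RMA, a method that corrects background and sets the arrays to a common distribution, and the 2 arrays per group limit the precision of every value.

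Monoamines are made from amino acids, packed into secretory granules by vesicular transporters, cleared from the surroundings by plasma membrane transporters and broken down by oxidases of the outer mitochondrial membrane. In the stomach the best known monoamine store is the enterochromaffin-like cell, an endocrine cell of the acid-secreting mucosa that packs histamine through VMAT2, the product of Slc18a2. Serotonin is made by Tph1 and Ddc in enterochromaffin cells and, in mice, also in mast cells, and histamine is broken down by methylation through Hnmt followed by oxidation through monoamine oxidase B.

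Promoter windows are shown for the vesicular transporter gene whose value differed most and for an oxidase gene that read lower, to let the sequences be set beside the values that follow. They are RefSeq windows of build GRCm38.p6 that run from 250 bases before to 50 bases after the annotated start, and 7 of the 9 members matched an entry. Slc18a1 and Maob, the oxidase gene with the larger difference, matched none. The Slc18a2 window lies at chr19:59260628-59260927 on the plus strand and the Maoa window at chrX:16619448-16619747 on the plus strand. Capitals mark each match to the cAMP response element TGACGTCA, which reads the same on both strands, and to the GC box GGGCGG on either strand, where a match on the minus strand reads CCGCCC.
Slc18a2: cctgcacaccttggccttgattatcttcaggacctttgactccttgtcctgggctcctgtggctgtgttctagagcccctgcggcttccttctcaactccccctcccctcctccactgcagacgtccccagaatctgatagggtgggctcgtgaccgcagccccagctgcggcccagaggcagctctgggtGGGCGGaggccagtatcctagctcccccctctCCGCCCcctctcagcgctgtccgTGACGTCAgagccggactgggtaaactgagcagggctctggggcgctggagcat
Maoa: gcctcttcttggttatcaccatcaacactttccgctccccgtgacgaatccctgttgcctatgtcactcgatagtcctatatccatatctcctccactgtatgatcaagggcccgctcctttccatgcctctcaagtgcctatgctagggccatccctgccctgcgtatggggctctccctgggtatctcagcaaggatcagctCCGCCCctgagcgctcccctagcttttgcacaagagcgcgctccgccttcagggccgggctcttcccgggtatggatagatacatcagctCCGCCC
The Slc18a2 window held 1 cAMP response element that spans the annotated start, beginning at base -4 relative to it, and GC boxes at -59 on the plus strand and -27 on the minus strand. The Maoa window held GC boxes on the minus strand beginning at -46 and 45 relative to the start, and no TGACGTCA. None of these matches overlapped another. GC boxes were also found in windows of Slc29a4 and Tph1, for which the groups overlapped. Any link between the matches and the differences was not tested. Of all 32851 windows of the same length, 1.79% held TGACGTCA and 35.7% held GGGCGG, and a match is a description of letters, not of a bound site.

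The targeted gene did not separate the groups. Hdc read 3.77 and 4.06 on the Hdc-/- arrays and 3.99 and 3.82 on the Hdc+/+ arrays, all below the 95th percentile of 1105 olfactory receptor genes, taken as a rough level of genes that stomach is not known to use, which lay between 4.02 and 4.28 over the 4 arrays. Every direction below therefore rests on the labels. The tissue label fitted the defining gastric markers, since Atp4a, Atp4b, Pgc, Muc5ac, Gkn1 and Gkn2 read between 10.42 and 13.35 on all 4 arrays. Hdc+/+ array 2 stood apart, with the highest summed linear level of hepatocyte, intestinal and pancreatic acinar markers.

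Across the 8 measured members, 1 gene read higher without overlap between the groups, Slc18a2, and 3 read lower without overlap, Maoa, Maob and Ddc. Over all genes, 21.5% were higher and 17.6% lower in that sense. In limma's test with Benjamini-Hochberg adjustment at 0.05, 0 members passed in either direction, with adjusted p from 0.247 for Slc18a2 to 0.982 for Tph1. That test called 0.00451% of all genes higher, a single gene, H2-Ea, and 0.00% lower. H2-Ea encodes a class II histocompatibility chain and is named here after its value was seen. It read 7.65 and 7.47 on the Hdc-/- arrays and 3.36 and 3.02 on the Hdc+/+ arrays. Whether the groups differed in genetic background besides Hdc was not tested, for this gene or for the members. At an unadjusted p under 0.05, 1 member was higher (Slc18a2) and 2 were lower (Maoa and Maob), against 3.68% of all genes higher and 4.87% lower. The median log2 difference of the 8 was -0.10, Hdc-/- minus Hdc+/+, against 0.02 over all genes. With 2 arrays in each group, an exact two-sided permutation test of a single gene cannot give a p below 0.333, and it gave that value for the 4 genes without overlap.

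**Figure D1:**
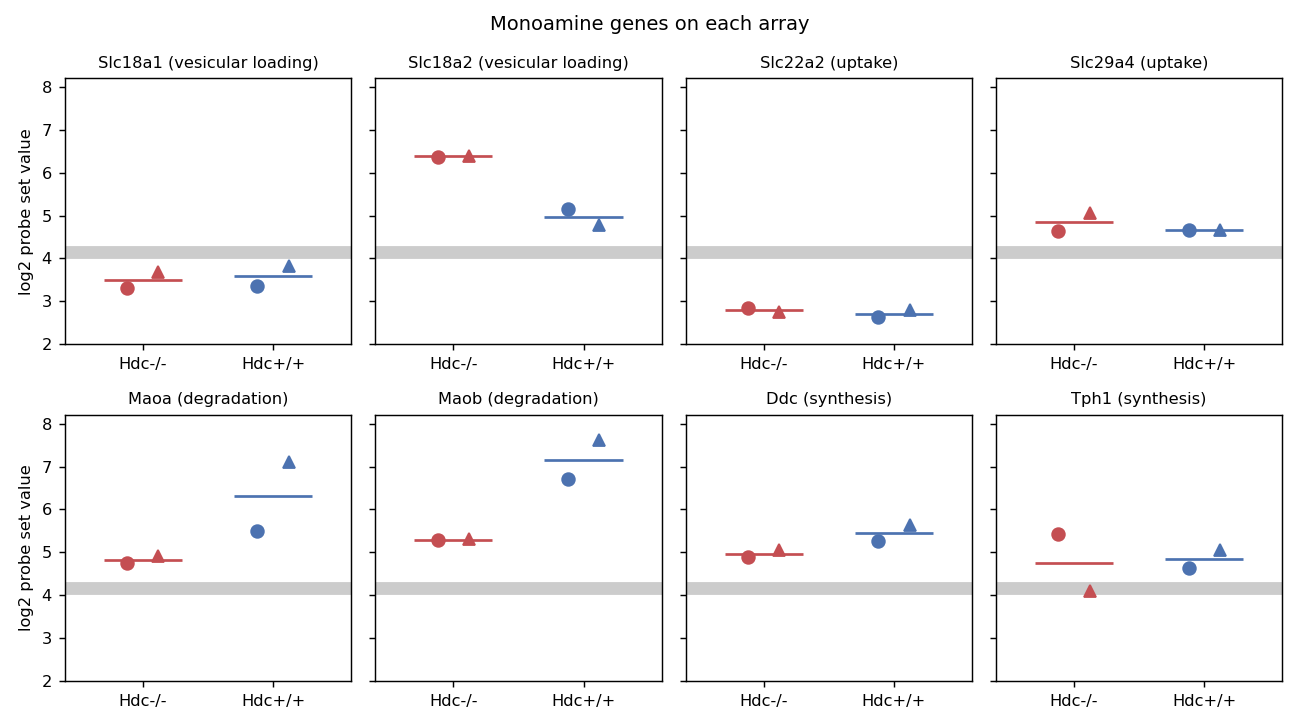
Log2 probe set value (vertical axis) of each measured monoamine gene on the Hdc-/- (red) and Hdc+/+ (blue) arrays; circles are replicate 1, triangles replicate 2, lines the mean of 2 arrays, and the grey band spans the 95th percentile of olfactory receptor genes on the 4 arrays, 4.02 to 4.28. Slc18a2 sits higher and Maoa, Maob and Ddc lower on both Hdc-/- arrays, and Slc18a1 and Slc22a2 lie under the band on every array.

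Of the vesicular loading genes, Slc18a2 read higher on the Hdc-/- arrays and Slc18a1 was dim on all 4. Slc18a2 encodes VMAT2, which exchanges protons for histamine, serotonin or catecholamines at the granule membrane. It read 6.38 on each Hdc-/- array, against 5.15 and 4.77 on the Hdc+/+ arrays. The Hdc-/- values lay 1.23 above the higher Hdc+/+ value, a gap wider than the 0.37 between the Hdc+/+ arrays. On the log2 scale the difference was 1.42 (SE 0.19, 95% interval 0.94 to 1.90, n = 2 per group), which is 2.68-fold. Limma gave an adjusted p of 0.247 and an unadjusted p of 0.000413. It ranked 33 of 22180 genes by p, and 321 genes (1.45%) had a larger difference in either direction.

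Slc18a1 encodes VMAT1, the related transporter of endocrine and chromaffin cells. It read 3.31 and 3.67 on the Hdc-/- arrays and 3.36 and 3.83 on the Hdc+/+ arrays, and the groups overlapped. The difference was -0.10 (SE 0.24, 95% interval -0.69 to 0.49, limma adjusted p = 0.950). All 4 values lay under the olfactory receptor 95th percentile, so a change in Slc18a1 was not detectable at this signal. Its sign depended on the array left out, with 0.13 without Hdc+/+ array 2 and -0.34 without Hdc+/+ array 1. The planned comparison of the Slc18a2 and Slc18a1 differences is not used, because Slc18a1 was not above that level on any array.

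For the uptake genes no difference beyond the spread between arrays was detected. Slc22a2 encodes the organic cation transporter OCT2, best known in kidney, which carries histamine and other amines at high capacity. It read 2.84 and 2.75 on the Hdc-/- arrays and 2.64 and 2.79 on the Hdc+/+ arrays. All 4 values were under the olfactory receptor 95th percentile, and the difference of 0.08 (SE 0.16, 95% interval -0.33 to 0.49) had a limma adjusted p of 0.938, with values from 0.0061 to 0.16 when single arrays were left out. Slc29a4 encodes the plasma membrane monoamine transporter PMAT, which takes up serotonin and dopamine. It read 4.63 and 5.07 on the Hdc-/- arrays and 4.67 on each Hdc+/+ array, where the deposited values were identical to the last digit. The groups overlapped, and the difference of 0.18 (SE 0.20, 95% interval -0.32 to 0.69) had a limma adjusted p of 0.857.

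**Figure D2:**
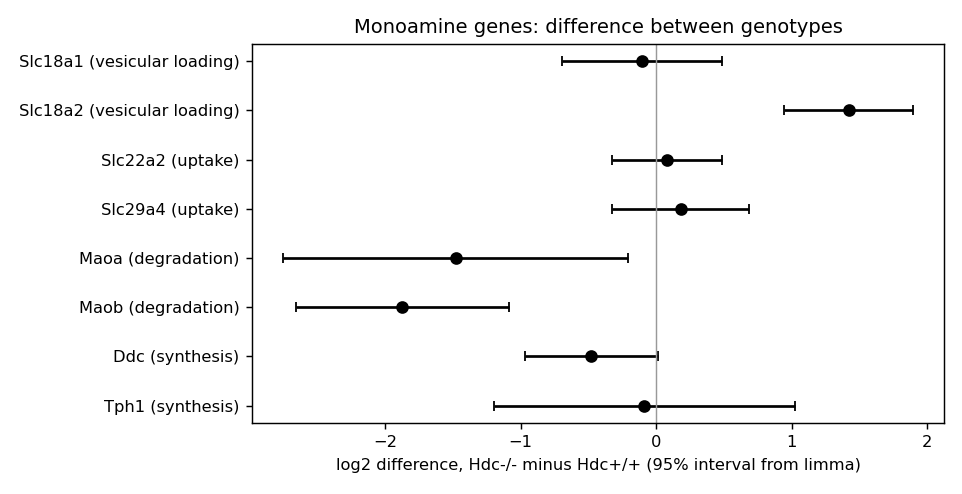
Log2 difference, Hdc-/- minus Hdc+/+ (horizontal axis), with its 95% interval from limma, for each measured monoamine gene, n = 2 arrays per group. The intervals of Slc18a2 (0.94 to 1.90), Maoa (-2.75 to -0.21) and Maob (-2.66 to -1.09) lie to 1 side of 0 before any adjustment for the 22180 genes tested.

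Both oxidase genes read lower on the Hdc-/- arrays. Maob encodes monoamine oxidase B, which oxidises phenylethylamine, dopamine and the methylated product of histamine. It read 5.28 and 5.30 on the Hdc-/- arrays, against 6.70 and 7.62 on the Hdc+/+ arrays. The Hdc-/- pair differed by 0.02, the Hdc+/+ pair by 0.92, and the groups were separated by 1.40. The difference was -1.87 (SE 0.32, 95% interval -2.66 to -1.09, n = 2 per group), which is 3.66-fold lower. Limma gave an adjusted p of 0.279 and an unadjusted p of 0.00130. The difference was -1.41 without Hdc+/+ array 2 (limma adjusted p = 0.671) and -2.33 without Hdc+/+ array 1, where it passed (limma adjusted p = 0.0427) in a fit that called 158 genes lower.

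Maoa encodes monoamine oxidase A, which prefers serotonin and noradrenaline and is the neighbour of Maob on the X chromosome. It read 4.74 and 4.91 on the Hdc-/- arrays and 5.49 and 7.12 on the Hdc+/+ arrays. The groups did not overlap, but the gap between them, 0.58, was narrower than the 1.63 between the Hdc+/+ arrays. The difference was -1.48 (SE 0.51, 95% interval -2.75 to -0.21, limma adjusted p = 0.529, unadjusted p = 0.0299). Without Hdc+/+ array 2 it was -0.66 (limma adjusted p = 0.997), and without Hdc+/+ array 1 it was -2.29 (limma adjusted p = 0.0517), so its size depended on which Hdc+/+ array was kept. The Maob difference minus that of Maoa was -0.40, and the groups overlapped on this measure (exact permutation p = 0.667, and 1.00 after Benjamini-Hochberg adjustment over the 3 pairs computed). It was -0.75 without Hdc+/+ array 2 and -0.044 without Hdc+/+ array 1.

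**Figure D3:**
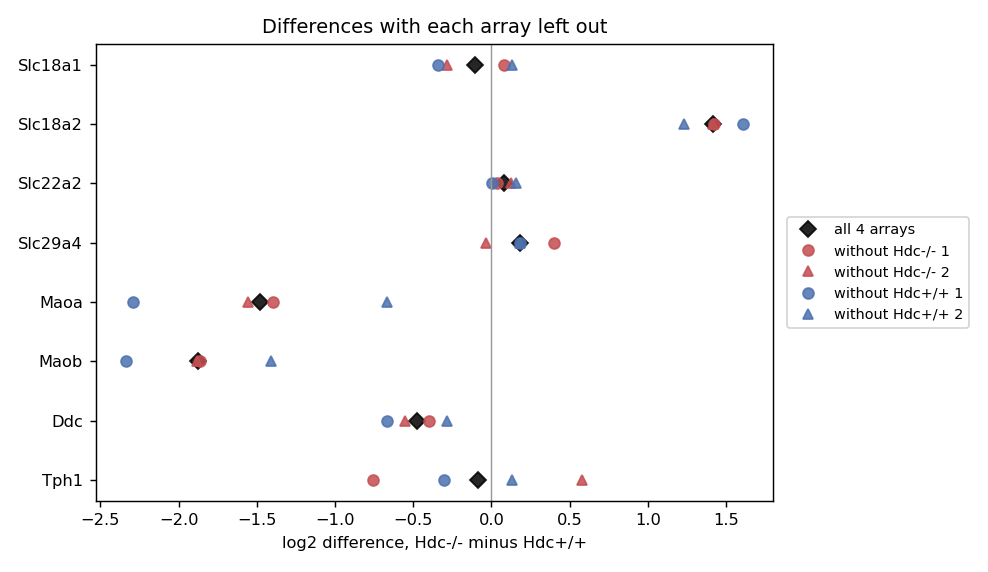
Log2 difference, Hdc-/- minus Hdc+/+ (horizontal axis), of each measured monoamine gene with all 4 arrays (diamonds) and with each array left out in turn (red, a Hdc-/- array left out; blue, a Hdc+/+ one). Slc18a2 stays between 1.23 and 1.61 and Maob between -2.33 and -1.41, while Maoa runs from -2.29 to -0.66 and Tph1 from -0.75 to 0.58.

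Of the synthesis genes, Ddc read lower on both Hdc-/- arrays, and for Tph1 the groups overlapped. Ddc encodes aromatic amino acid decarboxylase, the last step to serotonin and to dopamine. It read 4.89 and 5.04 on the Hdc-/- arrays and 5.25 and 5.64 on the Hdc+/+ arrays, without overlap but with a gap of 0.21 that was narrower than the 0.39 between the Hdc+/+ arrays. The difference was -0.48 (SE 0.20, 95% interval -0.97 to 0.02, limma adjusted p = 0.591), and it was -0.28 without Hdc+/+ array 2 and -0.67 without Hdc+/+ array 1.

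Tph1 encodes tryptophan hydroxylase 1, the rate-limiting enzyme of serotonin synthesis outside the brain. It read 5.42 and 4.09 on the Hdc-/- arrays and 4.63 and 5.06 on the Hdc+/+ arrays. Both Hdc+/+ values lay between the Hdc-/- ones, which differed by 1.33, and the value on Hdc-/- array 2 was under that array's olfactory receptor 95th percentile of 4.25. The difference was -0.09 (SE 0.45, 95% interval -1.20 to 1.02, limma adjusted p = 0.982), and its sign depended on which array was left out: 0.58 without Hdc-/- array 2, 0.13 without Hdc+/+ array 2 and -0.75 without Hdc-/- array 1. The Tph1 difference exceeded that of Ddc by 0.39 with overlapping groups (exact permutation p = 1.00, adjusted p = 1.00).

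Markers of other cells and organs varied along with several members, and in whole tissue fewer cells of a type and less RNA per cell cannot be told apart. For the hepatocyte list, with 12 of 13 genes measured, the summed linear level was 581 and 833 on the Hdc-/- arrays and 4405 and 12943 on the Hdc+/+ arrays. All 12 genes were lower without overlap, against 17.6% of all genes. For the intestinal list, with 14 of 14 measured, the sum was 1666 and 1170 on the Hdc-/- arrays and 2644 and 10388 on the Hdc+/+ arrays. Of this list, 10 genes were lower without overlap, against the same 17.6% of all genes. Its defining genes differed among themselves, at -3.92 for the fatty acid binding protein gene Fabp2, 0.11 for Cdx1 and -0.20 for Cdx2, the last 2 being intestinal transcription factor genes (limma adjusted p = 0.247, 0.908 and 0.805). For the pancreatic acinar list, with 9 of 12 measured, the sum was 4551 and 5132 on the Hdc-/- arrays and 4141 and 8943 on the Hdc+/+ arrays. Of this list, 1 gene was higher and 2 were lower without overlap. Its measured defining genes were bright on Hdc+/+ array 2 only. Cpa1 read 4.47 and 4.04 on the Hdc-/- arrays and 4.11 and 10.20 on the Hdc+/+ arrays. Ctrb1 read 5.25 and 5.06 on the Hdc-/- arrays and 5.14 and 10.94 on the Hdc+/+ arrays.

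Like Maoa, Maob and Ddc, these 3 lists were highest on Hdc+/+ array 2. The adipocyte, squamous epithelium, smooth muscle and endothelium sums were highest there too. The pancreatic list did not share the order of the other arrays, since its mean around gene means was -1.24 on Hdc+/+ array 1, where Maob stood at 0.48 and the hepatocyte list at 0.84. Defining liver genes were near the olfactory receptor level on the Hdc-/- arrays in part: Fgb read 3.48 and 3.54 and Apoh 3.62 and 3.95 there, while Alb read 4.90 and 4.71. On Hdc+/+ arrays 1 and 2, Fgb read 7.18 and 9.50, Apoh 6.48 and 8.43, and Alb 11.17 and 12.48. The liver genes were thus high on both Hdc+/+ arrays, not on array 2 alone. The adipocyte list (7 of 8 measured) and the squamous epithelium list (9 of 11 measured) also had lower summed levels on both Hdc-/- arrays. The adipocyte sum was 353 and 514 on the Hdc-/- arrays and 1045 and 1653 on the Hdc+/+ arrays, and the squamous sum was 144 and 252 on the Hdc-/- arrays and 499 and 725 on the Hdc+/+ arrays. Without overlap, 6 adipocyte and 8 squamous genes were lower, and 0 were higher in either list. Of the measured defining squamous genes, Trp63 was above the olfactory receptor 95th percentile on 0 arrays and Krt14 on 2. The part of these lists in the Maoa, Maob and Ddc differences was not tested.

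**Figure D4:**
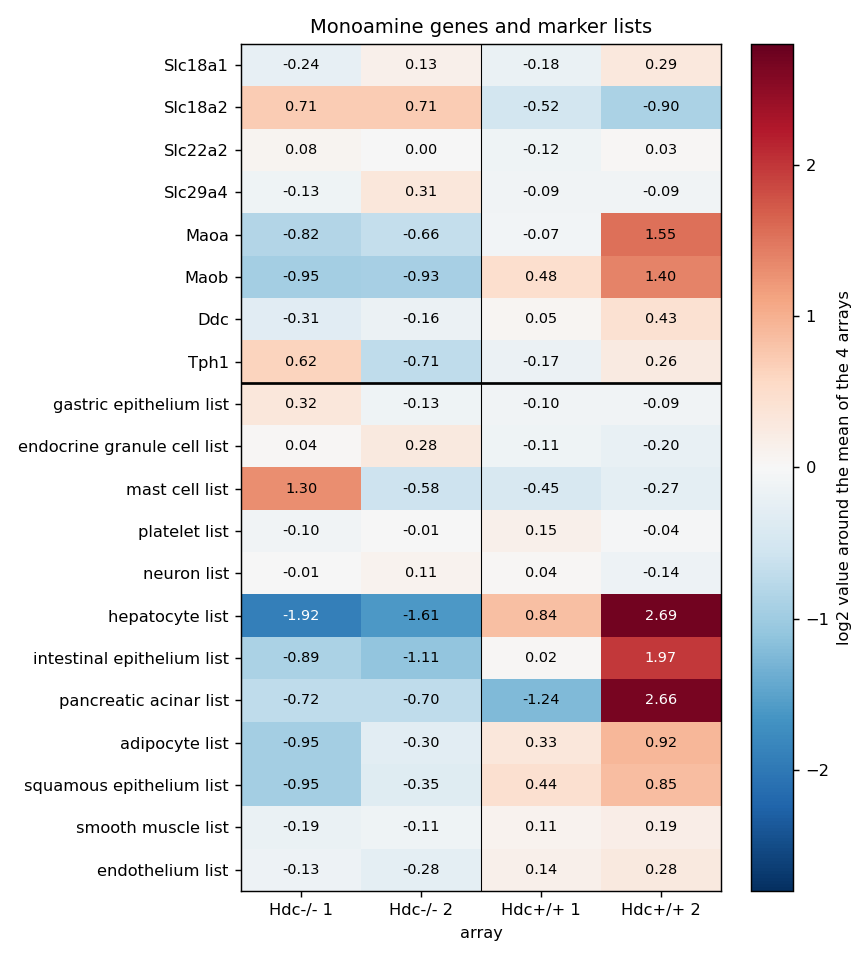
Log2 value around the mean of the 4 arrays (colour and printed number) for the measured monoamine genes, above the line, and the mean over each marker list, below it, by array. Maoa (1.55) and Maob (1.40) are highest on Hdc+/+ array 2, as are the hepatocyte (2.69), intestinal (1.97) and pancreatic acinar (2.66) lists. The adipocyte (0.92), squamous epithelium (0.85), smooth muscle (0.19) and endothelium (0.28) lists are highest there too, and the mast cell list is highest on Hdc-/- array 1 (1.30).

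For Slc18a2 the lists of cells that use VMAT2 were set beside it. The endocrine granule list, with 20 of 23 genes measured, had summed levels of 2548 and 4345 on the Hdc-/- arrays and 2158 and 1934 on the Hdc+/+ arrays, and 9 of its genes were higher and 1 lower without overlap, against 21.5% and 17.6% of all genes. Chga, the chromogranin A gene of endocrine granules, read 9.05 and 9.58 on the Hdc-/- arrays and 7.54 and 7.30 on the Hdc+/+ arrays. Chgb, another granin, read 6.67 and 6.69 on the Hdc-/- arrays and 5.26 and 6.27 on the Hdc+/+ arrays. The endocrine transcription factor genes Insm1 and Neurod1 differed by 0.16 and 0.14, with limma adjusted p of 0.854 and 0.869. The part of endocrine cell number in the Slc18a2 difference was not tested.

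The mast cell sum was highest on Hdc-/- array 1. Of the mast cell list, 12 of 12 genes were measured. Without overlap, 5 were higher and 1 lower, against 21.5% and 17.6% of all genes. The list summed to 2092 and 368 on the Hdc-/- arrays and to 443 and 515 on the Hdc+/+ arrays. Cpa3, a mast cell carboxypeptidase gene, read 9.21 and 6.24 on the Hdc-/- arrays and 7.25 and 7.62 on the Hdc+/+ arrays. Slc18a2 was as high on Hdc-/- array 2, where the mast cell sum was lowest, and its difference was 1.42 without Hdc-/- array 1. Tph1 was highest on Hdc-/- array 1 and lowest on Hdc-/- array 2, as the mast cell sum was. The part of mast cells in the Slc18a2 difference and in the Tph1 values was not tested. The platelet list (5 of 6 measured) summed to 105 and 110 on the Hdc-/- arrays and to 120 and 105 on the Hdc+/+ arrays. Without overlap, 1 platelet gene was higher and 2 were lower, against the same shares of all genes. Neither of its defining genes, Pf4 and Ppbp, was above the olfactory receptor 95th percentile on all arrays, and the same held for Elavl4 and Prph of the neuron list. Ppbp read 3.76 and 3.98 on the Hdc-/- arrays and 4.86 and 4.63 on the Hdc+/+ arrays, above that level only on the latter (limma adjusted p = 0.342).

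Among other genes of monoamine synthesis, transport and breakdown, 28 of 32 listed were measured and none passed limma's test over all genes, with adjusted p from 0.253 to 0.997. At an unadjusted p under 0.05, 1 was higher and 5 were lower, against 3.68% and 4.87% of all genes. The count of lower genes was 2 without Hdc+/+ array 2 or without Hdc-/- array 2, and 8 without Hdc+/+ array 1. Without overlap between the groups, 4 were higher and 9 lower, against 21.5% and 17.6% of all genes. The median difference was -0.19 against 0.02 over all genes, and it was -0.11 without Hdc-/- array 1, -0.060 without Hdc+/+ array 2 and -0.32 without Hdc+/+ array 1. By role, 13 breakdown genes had a median of -0.45, 5 transport genes of -0.20 and 10 synthesis genes of 0.11.

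Of the cofactor genes of monoamine synthesis, Gch1 read lower and Pts higher, each without overlap. Gch1 encodes the first enzyme of tetrahydrobiopterin synthesis, the cofactor of tryptophan and tyrosine hydroxylase. It read 5.72 and 5.57 on the Hdc-/- arrays and 6.77 and 6.78 on the Hdc+/+ arrays, a difference of -1.14 (SE 0.16, limma adjusted p = 0.253) that stayed between -1.21 and -1.06 with any array left out. Pts, which encodes the next enzyme of that route, read 6.98 and 6.74 on the Hdc-/- arrays and 6.19 and 6.10 on the Hdc+/+ arrays, a difference of 0.71 (SE 0.17, limma adjusted p = 0.396). Spr, Pcbd1 and Qdpr, also of cofactor synthesis or recycling and named after their values were seen, differed by 0.36, 0.28 and -0.27 (limma adjusted p = 0.651, 0.776 and 0.838).

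Histamine and other amines are also cleared by enzymes outside the oxidase pair. Hnmt, the histamine methyltransferase gene, read 4.79 and 4.27 on the Hdc-/- arrays and 5.24 and 5.55 on the Hdc+/+ arrays, a difference of -0.87 (SE 0.24, limma adjusted p = 0.451). Sult1a1, which encodes a phenol sulfotransferase, read 4.99 and 5.25 on the Hdc-/- arrays and 5.81 and 7.42 on the Hdc+/+ arrays. Its difference was -1.49 (SE 0.51, limma adjusted p = 0.522), and -0.69 without Hdc+/+ array 2, the array on which Maoa was also highest. Aoc3, an amine oxidase gene of adipocytes and vessels, differed by -0.79 (SE 0.31, limma adjusted p = 0.582), and by -0.36 without Hdc+/+ array 2. Beside it, the endothelium list (6 of 6 measured) summed to 178 and 156 on the Hdc-/- arrays and to 200 and 235 on the Hdc+/+ arrays. The smooth muscle list (6 of 6 measured) summed to 3009 and 3025 on the Hdc-/- arrays and to 3511 and 3767 on the Hdc+/+ arrays. In each of them 5 genes were lower and 0 higher without overlap. The adipocyte list (7 of 8 measured) summed to 353 and 514 on the Hdc-/- arrays and to 1045 and 1653 on the Hdc+/+ arrays. Of its genes, 6 were lower and 0 higher without overlap. The part of these lists in the Aoc3 difference was not tested. Slc18b1, the vesicular polyamine transporter gene, read 6.33 and 6.28 on the Hdc-/- arrays and 6.87 and 7.05 on the Hdc+/+ arrays, a difference of -0.65 (SE 0.17, limma adjusted p = 0.410).

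**Figure D5:**
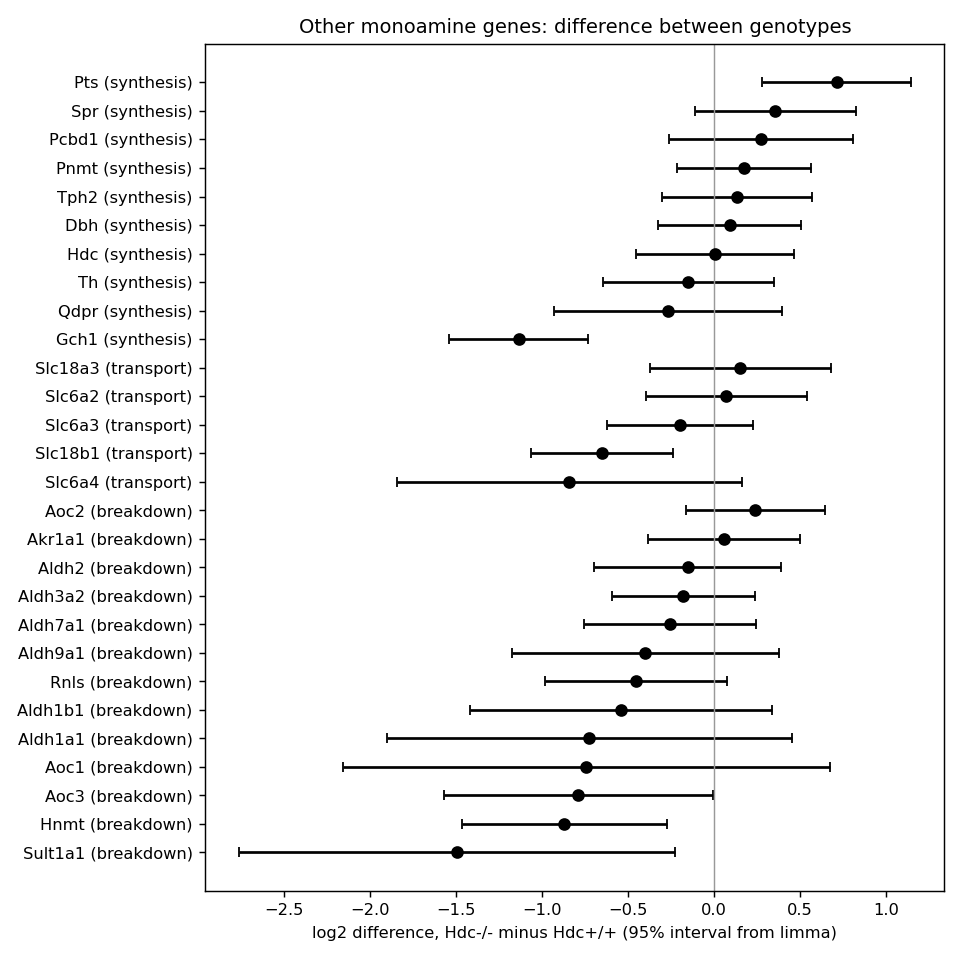
Log2 difference, Hdc-/- minus Hdc+/+ (horizontal axis), with its 95% interval from limma, for the 28 measured genes of the wider monoamine list, grouped by role, n = 2 arrays per group. Gch1 (-1.14), Slc18b1 (-0.65), Hnmt (-0.87), Sult1a1 (-1.49) and Aoc3 (-0.79) have intervals below 0 and Pts (0.71) has one above 0, before adjustment.

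The genes nearest to a member were found by Euclidean distance between log2 values around the gene mean over the 4 arrays, among 19396 genes. Such likeness over 4 arrays is a description only, as many genes share any pattern of 4 points. Nearest to Slc18a2 were Epb41l4a (distance 0.11), AF357426 (0.21) and Tmed6 (0.22), and Epb41l4a read 6.95 and 6.87 on the Hdc-/- arrays and 5.78 and 5.34 on the Hdc+/+ arrays. Nearest to Maob were Dpp4 (0.18), Mtarc1 (0.25) and Gdpd3 (0.32), and Dpp4, a brush border peptidase gene of intestine and other organs, read 4.30 and 4.25 on the Hdc-/- arrays and 5.76 and 6.45 on the Hdc+/+ arrays. Nearest to Tph1 were Igfbp5 (0.09), Pros1 (0.19) and Mmp13 (0.19).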

How the data were processed

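Total RNA (5.5 ug per array) was extracted with Trizol from minced stomach and hybridised as biotin-labelled cDNA, per the labels' protocols. The log2 values deposited by the authors were normalized with RMA, per the submitters' processing notes. Those also list oligo and Affymetrix Power Tools, and versions, filters and a build are not given there. Of 41345 probe sets, 23521 had 1 symbol in the platform annotation, 1814 several and 16010 none. For the 1082 genes with several probe sets, the brightest on average stood for the gene. Hdc-/- and Hdc+/+ arrays were compared across 22180 genes with limma 3.58.1 in R 4.3.3 (lmFit, eBayes, 2 residual and 3.62 prior degrees of freedom), with Benjamini-Hochberg adjustment. The code of the fit was run on data simulated from its own variance prior, which does not test the member differences. Every adjusted p of a gene is limma's. Signal over background was not given per probe set, so olfactory receptor genes served as a rough level. The fit gave Slc29a4, with identical Hdc+/+ values, a moderated error. Members, lists and naming rules were chosen with earlier results of these data known. The rule named all members, Hdc and 6 genes of the wider list by p, defining markers and the 3 nearest genes of Slc18a2, Maob and Tph1. The planned pair of Slc22a3 and Slc22a2 could not be computed. Alternatives left out dim genes or single arrays, averaged or tested all probe sets, renormalized, or changed the prior or the block.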

Additional observations from a re-analysis of the deposited data

How the results depend on the processing

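The differences of Slc18a2, Maoa, Maob and Ddc kept their direction in all 13 alternatives, Slc18a2 between 1.23 and 1.61. Leaving out single arrays moved Maob between -2.33 and -1.41, with a call only without Hdc+/+ array 1, and it moved Slc18a1 between -0.34 and 0.13, Slc29a4 between -0.036 and 0.40, Tph1 between -0.75 and 0.58, Tph1 minus Ddc between -0.35 and 1.13 and Hdc between -0.14 and 0.15. Of these genes, Maob alone passed limma's test in those fits, and the pair was not tested there. Hdc was also -0.020 under cyclic loess. Over all genes, limma called 2 higher and 3 lower after a second quantile normalization, 3 higher and 2 lower with a trended and robust prior and 0 higher with every probe set tested. Leaving out an array gave 0 to 3 higher and 0 to 158 lower, the 158 without Hdc+/+ array 1, and 2 to 8 genes of the wider monoamine list lower at an unadjusted p. The cause of these changes was not tested. With the replicate number as a block limma called 1 gene higher and 6 lower, and Slc18a2 and Maob had adjusted p of 0.184 and 0.179. Arrays of the same number deviated from their group means with a correlation of -0.12, so the numbers were not taken as pairs, and a crossed block, chosen after seeing the data, called 0 genes in the higher and 0 in the lower direction. Slc22a2 had no value with the dimmest 25% or 50% of genes left out, nor Slc18a1 and Hdc with 50%. Fits without an array took the lone array to vary like the other group. Dim signal limits Slc18a1, Slc22a2 and, on Hdc-/- array 2, Tph1.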
